A study of Mus musculus with 12 samples.

Results

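The immediate-early targets of CREB are the genes that switch on within minutes when cAMP or calcium signalling phosphorylates the transcription factor CREB. They were followed here in cultured stroma from bone marrow, the attached layer of cells that supports blood formation. The members were taken by gene symbol from a list of 10 genes, which was chosen with earlier results of these data known. Of these, 8 (Nr4a1, Junb, Fosb, Fos, Atf3, Egr1, Pde4b and Dusp1) had a probe set of their own among those analysed, out of 1974 genes with such a probe set. Pde4b had 3 probe sets and the other members 1 each, 10 of 3109 in all, while Crem and Per1 were not analysed here. The 12 Affymetrix arrays came from C57BL/6 mice aged 3 to 4 months, with 4 wild-type, 4 Crebbp+/- and 4 Ep300+/- replicates. In every group, wild type included, marrow had been plated in M5300 medium for 2 weeks, and the stroma had then been irradiated with 1500 cGy and given fresh medium. How the mutant alleles were made is not given in the labels. These labels name biological replicates but do not say whether each came from 1 mouse, so the p-values measure the spread between these samples.

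CREB binds the cAMP response element of its target promoters and, once phosphorylated, recruits the coactivators CBP (the product of Crebbp) and p300 (the product of Ep300), which acetylate histones and help to start transcription. The targets described here fall into transcription factors that pass the signal on (Nr4a1, Junb, Fosb, Fos, Atf3, Egr1) and enzymes that damp it (Pde4b, which breaks down cAMP, and Dusp1, which dephosphorylates MAP kinases). Several of them also respond to serum, stress kinases and inflammatory signals through other elements of their promoters. The comparison asks whether their levels differed in stroma heterozygous for one of these coactivators.

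The promoters of the members are shown because the cAMP response element is the sequence that defines the group. Over the 250 bases upstream of each annotated start (RefSeq, GRCm38.p6), the core element TGACG was searched on both strands, and the full palindrome TGACGTCA, which holds 2 overlapping copies of it, was counted as well. Promoters were searched for 7 of the 8 members, Egr1 being the exception, and each of the 7 held a core element in at least 1 promoter. Of all 32851 promoters of that length, 17.8% held the core element and 1.55% the full palindrome. Counted by gene, 19.8% of 27025 genes held the core element in at least 1 promoter and 1.77% the full palindrome. The stretches that hold the matches are printed 5′ to 3′ with the matches in capitals.
Nr4a1 (chr15:101266596-101266835, plus strand): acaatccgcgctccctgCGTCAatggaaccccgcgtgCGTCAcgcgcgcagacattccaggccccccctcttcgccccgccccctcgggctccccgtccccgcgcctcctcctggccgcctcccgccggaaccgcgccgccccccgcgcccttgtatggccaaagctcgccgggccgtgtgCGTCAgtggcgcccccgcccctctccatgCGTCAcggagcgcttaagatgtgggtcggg
Fos (chr12:85473736-85473853, plus strand): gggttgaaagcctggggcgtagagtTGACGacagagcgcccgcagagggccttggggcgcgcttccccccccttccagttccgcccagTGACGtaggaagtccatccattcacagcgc
Junb (chr8:84978825-84978879, minus strand): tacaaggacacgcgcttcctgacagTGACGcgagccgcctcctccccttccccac
Fosb (chr7:19310076-19310130, minus strand): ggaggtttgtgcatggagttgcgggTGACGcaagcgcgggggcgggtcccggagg
Atf3 (chr1:191183334-191183365, minus strand): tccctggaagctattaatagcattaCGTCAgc
Pde4b (chr4:102421496-102421550, plus strand): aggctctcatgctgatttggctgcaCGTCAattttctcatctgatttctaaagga
Dusp1 (chr17:26508583-26508688, minus strand): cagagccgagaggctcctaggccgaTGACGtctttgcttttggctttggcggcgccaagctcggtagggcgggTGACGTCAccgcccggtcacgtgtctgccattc

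Only Dusp1 held the full palindrome, 143 bases before its start. The 4 core elements of Nr4a1 all lay on the opposite strand, and those of Fos lay 129 and 66 bases before the start. Pde4b has 4 annotated promoters in that table, and 1 of them held a core element, 34 bases before its start. A match describes these letters only and does not show that CREB bound there.

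In both heterozygotes the mean level of most members was above wild type, by a median log2 fold change of 0.83 in Crebbp+/- and 1.14 in Ep300+/-. No member passed the test over all probe sets without a replicate block. Blocked on replicate number, the 3 probe sets of Pde4b passed in Crebbp+/- against wild type (limma adjusted p from 0.0236 to 0.0295). That fit called 17.5% of all probe sets higher. The replicates of the heterozygotes lay far apart, and in each heterozygote replicate 3 carried the highest level of all 8 members. Pde4b was the exception to the overlap with wild type, lying above it on every heterozygous array with the probe set of highest mean. Its margin was 0.010 in Crebbp+/- and 0.63 in Ep300+/-, and on 1422473_at Ep300+/- overlapped with wild type. Of all probe sets, 10.4% in Crebbp+/- and 1.99% in Ep300+/- were higher without overlap. Fos and Dusp1 differed little in their means. The levels are log2 values made with GCRMA by the authors, each probe set has its own scale, and no member is set against another. In such cultures, fewer cells of a type and less RNA per cell cannot be told apart.

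**Figure D1:**
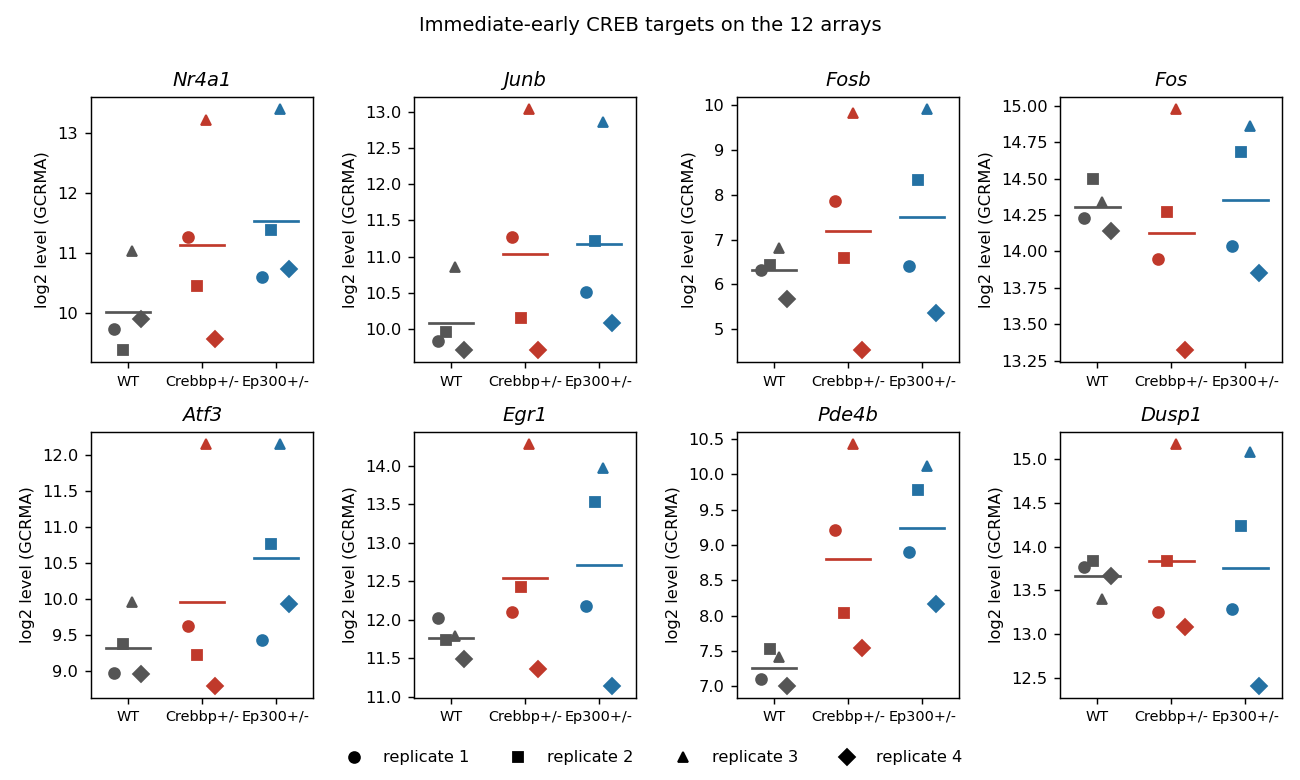
Log2 level (GCRMA, vertical axis) of the 8 members on each of the 12 arrays by genotype, with the symbol giving the replicate number and the line the mean of the 4 arrays. The triangles of the Crebbp+/- and Ep300+/- replicates 3 are the highest points of every panel, and the Pde4b panel shows no overlap with wild type.

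The counts were 0 of 8 members called in Crebbp+/- against wild type (limma, adjusted p under 0.05), where 6.18% of all probe sets were called in either direction, 5.02% higher and 1.16% lower. They were 0 of 8 in Ep300+/- against wild type, where 0 of 3109 probe sets were called and 4.05% had an unadjusted p under 0.05. In each of these comparisons 1 member, Pde4b, had an unadjusted p under 0.05, against 26.7% of all probe sets in Crebbp+/-. Of the 8 fold changes 7 were positive in Crebbp+/- and all 8 in Ep300+/-, beside 62.4% and 54.8% of all probe sets. Leaving out the Crebbp+/- and Ep300+/- replicates 3 left 5 and 6 of them positive. The 2 comparisons share the wild-type arrays. All probe sets had a median log2 fold change of 0.24 in Crebbp+/- and 0.049 in Ep300+/-, and after centring each array on its median the members' medians were 0.63 and 1.08. Without Crebbp+/- 3 the Crebbp+/- median was 0.11 and without Crebbp+/- 4 it was 1.28. Without Ep300+/- 3 the Ep300+/- median was 0.52.

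Nr4a1 encodes an orphan nuclear receptor and is a classical target of CREB. Its log2 levels were 9.72, 9.37, 11.03 and 9.90 on the 4 wild-type arrays. They were 11.26, 10.44, 13.22 and 9.56 in Crebbp+/- and 10.59, 11.38, 13.40 and 10.73 in Ep300+/-. Replicate 3 was the highest array of each genotype, and each heterozygous group overlapped with wild type, Ep300+/- only through wild-type 3. The log2 fold change was 1.11 in Crebbp+/- (SE 0.77, limma adjusted p = 0.363) and 1.52 in Ep300+/- (SE 0.77, limma adjusted p = 0.965). By exact permutation, two-sided, the p-values were 0.257 and 0.0857, where 4 against 4 arrays cannot go below 0.0286. Without the 2 heterozygous replicates 3 the values were 0.41 and 0.89.

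Junb, Fosb and Fos encode subunits of the AP-1 transcription factor. Junb stood at 9.84, 9.96, 10.86 and 9.71 on the wild-type arrays. It reached 11.27, 10.15, 13.04 and 9.71 in Crebbp+/- and 10.52, 11.21, 12.86 and 10.09 in Ep300+/-. Like Nr4a1, Junb was highest on replicate 3 of each genotype and overlapped between the groups. Its log2 fold change was 0.95 in Crebbp+/- (SE 0.71, limma adjusted p = 0.408) and 1.08 in Ep300+/- (SE 0.71, limma adjusted p = 0.965), or 0.28 and 0.52 without the 2 heterozygous replicates 3.

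Fosb had the widest spread of the members, with a residual SD of 1.75 log2 units against a median of 0.528 over all probe sets. Its wild-type levels were 6.32, 6.44, 6.81 and 5.68. In Crebbp+/- stroma they ran from 4.53 on replicate 4 to 9.82 on replicate 3, with 7.86 and 6.59 between them. In Ep300+/- stroma they were 6.42, 8.33, 9.92 and 5.37. The heterozygous groups thus reached both above and below wild type, and the log2 fold changes of 0.89 (limma adjusted p = 0.605) and 1.20 (limma adjusted p = 0.965) were 0.013 and 0.40 without the 2 heterozygous replicates 3.

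Fos, whose product pairs with Jun proteins, was already high in wild type, and with Dusp1 it had the smallest differences from wild type of the 8 members. Its wild-type levels were 14.23, 14.50, 14.34 and 14.14, a range of 0.36. The Crebbp+/- levels were 13.95, 14.27, 14.98 and 13.32 and the Ep300+/- levels 14.04, 14.68, 14.86 and 13.85, so both groups spread to either side of wild type. The log2 fold changes were -0.18 (95% confidence interval -0.94 to 0.59, limma adjusted p = 0.752) and 0.052 (-0.71 to 0.81, limma adjusted p = 0.993). The sign in Ep300+/- turned under quantile normalization and median centring.

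Atf3 encodes a stress-induced member of the ATF/CREB family. Its levels were 8.97, 9.37, 9.96 and 8.95 in wild type and 9.62, 9.22, 12.15 and 8.79 in Crebbp+/-. In Ep300+/- they were 9.42, 10.76, 12.15 and 9.92, all above the lowest 3 wild-type arrays. The log2 fold change was 1.25 in Ep300+/- (SE 0.71, limma adjusted p = 0.965, exact permutation p = 0.0857) and 0.72 without replicate 3. In Crebbp+/- it was 0.64 (SE 0.71, limma adjusted p = 0.580) and it was -0.099 without replicate 3.

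Egr1, a zinc finger transcription factor of the early growth response, was steady in wild type at 12.02, 11.73, 11.79 and 11.49. It stood at 12.10, 12.42, 14.28 and 11.36 in Crebbp+/- and at 12.18, 13.53, 13.97 and 11.14 in Ep300+/-. In each heterozygote 3 of 4 arrays lay above all wild-type arrays and replicate 4 lay below them. Against wild type the log2 fold changes, 0.78 in Crebbp+/- (limma adjusted p = 0.460) and 0.95 in Ep300+/- (limma adjusted p = 0.965), each with an SE of 0.65, did not pass the threshold. Without the 2 heterozygous replicates 3 they were 0.20 and 0.52.

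Pde4b encodes a phosphodiesterase that hydrolyses cAMP, so that its induction closes a feedback loop on the pathway. By the probe set of highest mean, 1442700_at, wild-type levels were 7.11, 7.53, 7.42 and 7.01. Crebbp+/- levels were 9.21, 8.04, 10.43 and 7.54, and Ep300+/- levels were 8.90, 9.78, 10.12 and 8.16. All 8 heterozygous arrays lay above all 4 wild-type arrays, by a margin of 0.010 in Crebbp+/- and 0.63 in Ep300+/-. Pde4b was the 1 of 8 members without overlap in each comparison, where 10.4% and 1.99% of all probe sets were higher without overlap. The log2 fold change was 1.54 in Crebbp+/- (2.90-fold, SE 0.58, limma adjusted p = 0.116) and 1.97 in Ep300+/- (3.92-fold, SE 0.58, limma adjusted p = 0.823), and exact permutation gave 0.0286 for both, the smallest p that these numbers of arrays allow.

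The other 2 probe sets of Pde4b gave larger differences in Crebbp+/-. On 1422474_at the levels were 7.38, 6.57, 6.98 and 6.91 in wild type, 9.70, 9.11, 11.51 and 7.70 in Crebbp+/- and 7.39, 8.45, 11.66 and 7.48 in Ep300+/-. Crebbp+/- lay above wild type without overlap, and so did Ep300+/-, though its lowest array exceeded wild-type 1 by only 0.0084. The log2 fold changes were 2.54 in Crebbp+/- (SE 0.90, limma adjusted p = 0.105) and 1.78 in Ep300+/- (SE 0.90, limma adjusted p = 0.965). On 1422473_at, with wild-type levels of 5.17 to 6.10, they were 2.82 (limma adjusted p = 0.0938) and 1.89 (limma adjusted p = 0.965), and there Ep300+/- 1 and 4 (5.91 and 5.95) overlapped with wild type. In a fit without the Crebbp+/- and Ep300+/- replicates 3, chosen after the data were seen, these 2 probe sets were 3.66-fold and 4.38-fold higher in Crebbp+/- and passed (log2 fold change 1.87 and 2.13, limma adjusted p = 0.0486 and 0.0494), while 1442700_at had 0.995 (limma adjusted p = 0.157). That fit called 3.99% of all probe sets higher. Its Ep300+/- values were 0.81 on 1422474_at, 0.90 on 1422473_at and 1.68 on 1442700_at, with none called. They also passed without Ep300+/- 3 alone (limma adjusted p = 0.03085 and 0.0295, with 6.14% of all probe sets called higher). All 3 passed without Crebbp+/- 4 (limma adjusted p from 0.0364 to 0.0449, with 8.65% called higher). In a fit blocked on replicate number, all 3 rose in Crebbp+/- (limma adjusted p = 0.0295, 0.0244 and 0.0236), where 17.5% of all probe sets were called higher and 8.62% lower. By replicate number the differences on 1442700_at between Crebbp+/- and wild type were 2.097, 0.52, 3.01 and 0.52.

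**Figure D2:**
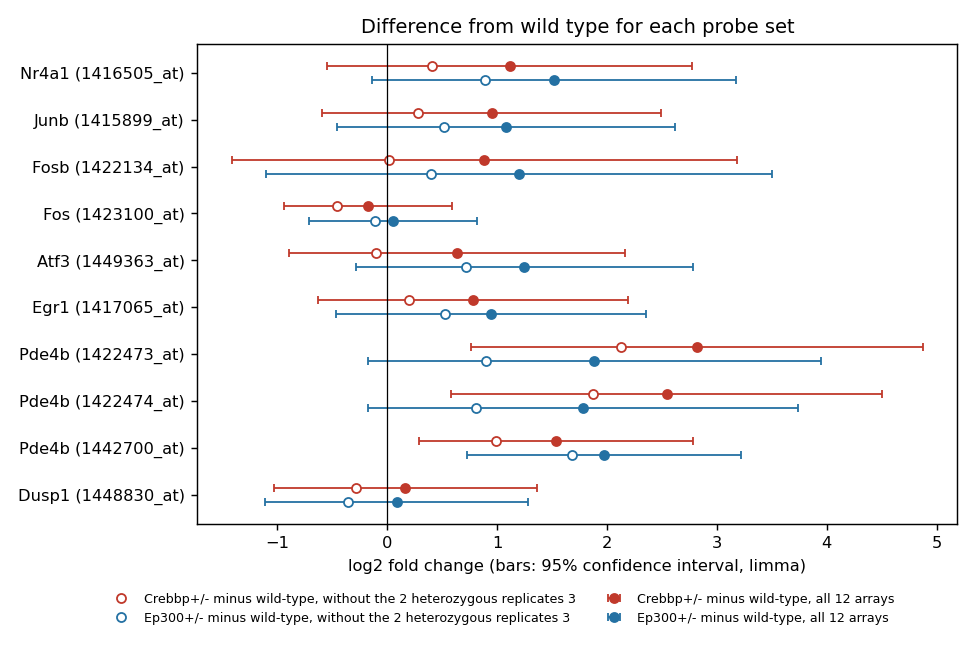
Log2 fold change against wild type (horizontal axis) of the 10 member probe sets, with filled points and 95% confidence intervals from limma over all 12 arrays and open points from a fit without the Crebbp+/- and Ep300+/- replicates 3. The intervals of the 3 Pde4b probe sets in Crebbp+/- and of 1442700_at in Ep300+/- exclude 0 before adjustment. For Nr4a1, Junb, Fosb, Atf3, Egr1 and the 3 Pde4b probe sets the open points lie closer to 0.

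Dusp1, which inactivates MAP kinases, spread widely in the heterozygotes around a mean near that of wild type. Its wild-type levels lay between 13.40 and 13.84. The Crebbp+/- levels were 13.25, 13.83, 15.17 and 13.08, and the Ep300+/- levels 13.29, 14.24, 15.08 and 12.41. The heterozygous arrays thus lay on both sides of wild type, with log2 fold changes of 0.17 (95% confidence interval -1.03 to 1.36, limma adjusted p = 0.846) and 0.089 (-1.11 to 1.29, limma adjusted p = 0.991). The sign in Crebbp+/- turned under quantile normalization and median centring, and in Ep300+/- under quantile normalization.

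No member was shown to differ between the heterozygotes. Against Ep300+/- stroma, 0 of 8 members were called in Crebbp+/-, where 6.4% of all probe sets were called, 4.89% higher and 1.51% lower. At an unadjusted p under 0.05 the count was also 0 of 8, beside 25.2% of all probe sets. The 8 log2 fold changes ran from -0.61 (Atf3) to 0.077 (Dusp1), with a median of -0.27 that turned to 0.17 without Crebbp+/- 4 and to 0.24 without Ep300+/- 3. The intervals were wide, from -2.06 to 1.25 for Nr4a1, from -1.67 to 1.41 for Junb and from -1.68 to 0.82 for Pde4b, so 4 arrays per genotype left the size and sign of these differences unresolved. The 3 Pde4b probe sets did not share a sign here, at -0.43 for 1442700_at against 0.76 for 1422474_at and 0.93 for 1422473_at. The latter 2 were called with array weights (log2 fold change 1.46 and 1.53, limma adjusted p = 0.0132 and 0.0151), under which 49.3% of all probe sets were called.

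The members varied together from array to array. Over the 12 arrays the 28 pairs of members had Pearson correlations from 0.574 (Fos with Pde4b) to 0.974 (Nr4a1 with Junb), with a median of 0.858, as a description of arrays that share genotype and culture. Without Crebbp+/- 3 and Ep300+/- 3 the median was 0.684 over 10 arrays and the lowest -0.061. Both of these arrays were the top 2 of 12 for 8 of 8 members, compared with 9.46% of all probe sets. Crebbp+/- 3 exceeded the mean of the other Crebbp+/- arrays by 1.14 (Fos) to 3.49 (Fosb), and Ep300+/- 3 exceeded the others of its genotype by 0.67 (Fos) to 3.22 (Fosb), while the median of all probe sets was -0.097 and 0.13. At the other end, Crebbp+/- 4 was the lowest Crebbp+/- array for 8 of 8 members and Ep300+/- 4 the lowest of its genotype for 6. In wild type, replicate 3 was highest for Nr4a1, Junb, Fosb and Atf3 but not for Fos, Egr1, Pde4b or Dusp1.

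What the replicate number stands for is not given in the labels. Fitting it as a block lowered the SE of every member, for Nr4a1 from 0.77 to 0.39 and for Pde4b (1442700_at) from 0.58 to 0.42. What lies behind the number was not tested. The array medians over all probe sets, 8.38 on Crebbp+/- 3 and 8.30 on Ep300+/- 3, lay within the 7.98 to 8.43 of all arrays. Eif2s3y, a Y-linked gene, was low on Crebbp+/- 1 (2.73) and Crebbp+/- 3 (2.69) and between 8.41 and 10.84 elsewhere, including 9.72 on Ep300+/- 3. Its part in the members' levels was not tested.

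Among other CREB and immediate-early targets, 30 of 61 listed genes were measured, and 0 were called in any of the 3 comparisons by the probe set of highest mean. Their median log2 fold change was 0.49 in Crebbp+/- (20 of 30 positive) and 0.69 in Ep300+/- (27 of 30 positive), and 0.056 and 0.30 without the 2 heterozygous replicates 3. The replicates 3 were the top 2 of 12 for 22 of the 30. Dusp2, a phosphatase of MAP kinases, had the largest values, at 3.32 in Crebbp+/- and 3.88 in Ep300+/- (limma adjusted p = 0.242 and 0.965), with 12.53 on Crebbp+/- 3 and 12.21 on Ep300+/- 3 against 3.00 to 6.58 in wild type. Both heterozygous groups overlapped with wild type. The nuclear receptor Nr4a3, a close relative of Nr4a1, had 1.64 and 1.65, and the stress gene Gadd45b had 1.78 and 1.71.

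Not every listed target followed the members. Nr4a2, the third NR4A receptor, was at its highest on wild-type 3 (9.44) and had log2 fold changes of -0.24 and 0.66, though its other 2 probe sets had 0.13 and 0.15 in Crebbp+/-. Ccn1, a matrix-associated protein of serum-stimulated cells, had -0.86 and -0.98, with 7.16 to 8.04 in wild type and 5.37 to 8.24 in Crebbp+/-. Blocked on replicate number, 4 of 30 rose in Crebbp+/-, namely Gadd45b, Dusp2, the phosphatase Dusp5 and the calcineurin inhibitor Rcan1 (limma adjusted p = 0.0162, 0.0478, 0.0307 and 0.0372), beside 17.5% of all probe sets. Rcan1 stood apart in that it did not peak on the replicates 3, with Crebbp+/- at 8.36, 7.95, 7.89 and 8.21 against 6.96 to 7.78 in wild type. The antiproliferative gene Btg2 had a second probe set of lower mean, 1416250_at, that rose in Crebbp+/- (log2 fold change 4.97, SE 0.79, limma adjusted p = 0.0128, but 0.0501 without wild-type 4 and 0.0503 without Crebbp+/- 2), while the one of higher mean, 1448272_at, had 0.48. On 1416250_at Btg2 had 4.55 in Ep300+/- (limma adjusted p = 0.120), with levels of 9.43, 10.17, 11.32 and 7.19 that all lay above the 4.27 to 5.77 of wild type. It passed there with array weights (limma adjusted p = 0.00105), without Ep300+/- 4 (0.0108) and with the replicate block (0.0392).

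**Figure D3:**
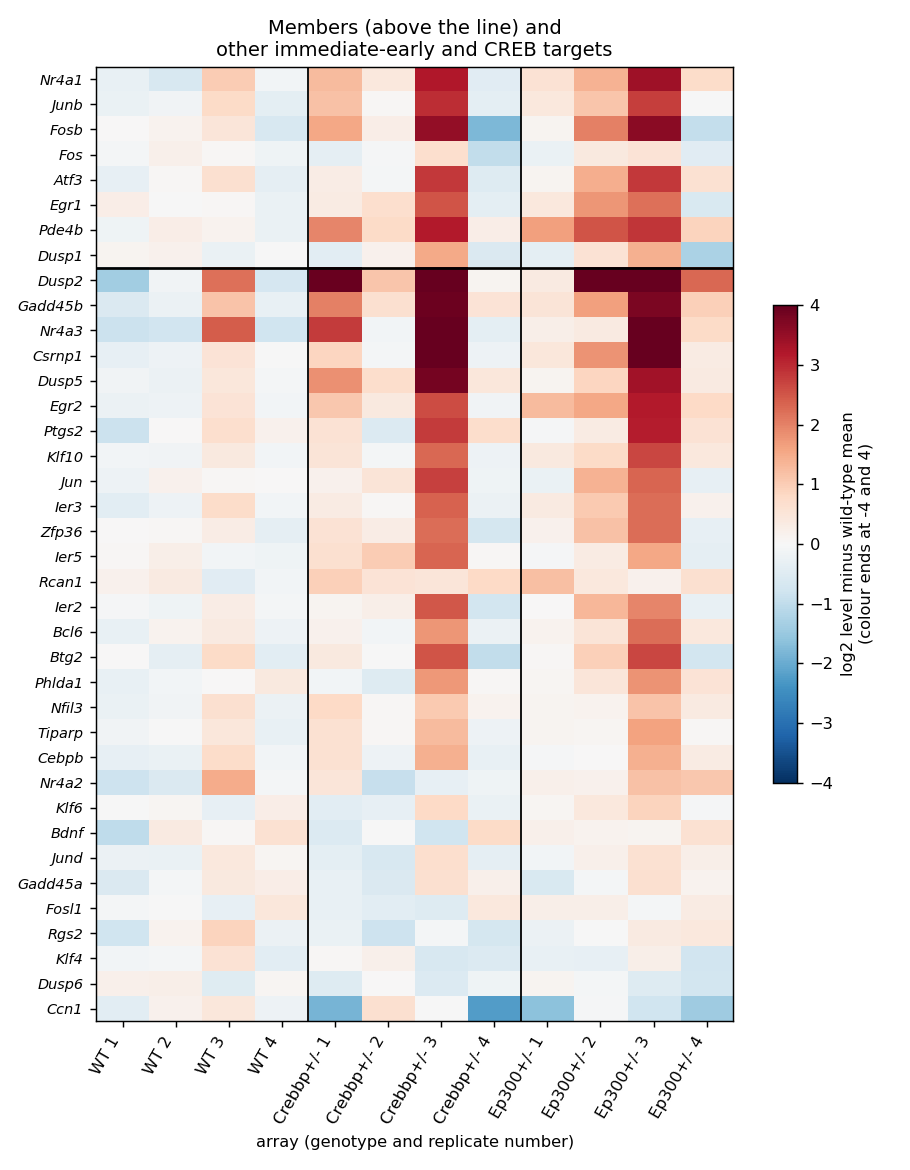
Log2 level minus the wild-type mean of each gene (colour, from -4 to 4) for the 8 members above the line and the 30 other immediate-early and CREB targets below it, over the 12 arrays. The dark red columns are Crebbp+/- 3 and Ep300+/- 3, and Rcan1 and Ccn1 are among the rows that do not follow them.

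Of the genes that make up or feed the CREB pathway, 11 of 55 listed were measured. Crebbp itself, the targeted coactivator gene, stood at 8.51, 8.45, 8.52 and 8.59 in wild type, 7.88, 7.67, 7.71 and 7.72 in Crebbp+/- and 8.73, 8.66, 8.48 and 8.73 in Ep300+/-. It fell in Crebbp+/- (log2 fold change -0.78, limma adjusted p = 0.0372), and its level on Crebbp+/- 3, where the members were highest, was like that on the other Crebbp+/- arrays. The call was lost without any 1 of wild-type 1 to 4, Crebbp+/- 1 to 3 and Ep300+/- 1 and 2 (limma adjusted p from 0.0616 to 0.129), with a log2 fold change between -0.82 and -0.75 throughout. CREB itself (Creb1) and Ep300 were not analysed here. The other 10 did not pass against wild type, among them Prkacb, a catalytic subunit of the cAMP-dependent kinase (1.19 in Crebbp+/-), Pkia, an inhibitor of that kinase (0.69), the prostaglandin E2 receptor Ptger2 (-0.79) and the parathyroid hormone receptor Pth1r (-0.66). With the replicate number as a block, Prkacb and Pkia rose and Ptger2 fell as well (limma adjusted p = 0.0124, 0.0370 and 0.0240), in a fit that called 17.5% of all probe sets higher and 8.62% lower.

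Of the 11 pathway genes 0 were called in Ep300+/- against wild type. Pde2a, a phosphodiesterase for cyclic nucleotides, was higher in Crebbp+/- than in Ep300+/- on both of its probe sets (log2 fold change 0.96 and 1.14, limma adjusted p = 0.0382 and 0.0310). On 1447707_s_at its levels were 12.27, 12.30, 12.37 and 11.49 in Crebbp+/- against 11.18, 11.05, 10.99 and 11.38 in Ep300+/-. The call on that probe set was lost without any 1 array other than Crebbp+/- 4 and Ep300+/- 3 (limma adjusted p from 0.05055 to 0.138) and under quantile normalization (0.129) and median centring (0.07). On 1452202_at it was lost without wild-type 4, Crebbp+/- 1, 2 or 3, or Ep300+/- 1, 2 or 4 (limma adjusted p from 0.0506 to 0.122). The same happened there without both heterozygous replicates 3 (0.0765) and with only the 2 genotypes compared (0.102). On these arrays 13 of 13 measured endothelial markers were also called higher in Crebbp+/- than in Ep300+/-, beside 4.89% of all probe sets. Their list means were 7.88 to 9.83 in Crebbp+/- and 6.49 to 7.44 in Ep300+/-. Among the Crebbp+/- arrays replicate 4 was lowest, as for Pde2a, and the part of these markers in the Pde2a difference was not tested.

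The genes whose profile over the 12 arrays was most like the members' mean standardized profile, by Pearson correlation among 1966 other genes, were Zfp36 (0.997), Ier2 (0.984), Cxcl2 (0.983), Pim1 (0.982), Kdm6b (0.981), Ppp1r15a (0.976), Btg2 (0.973) and Tnfaip3 (0.973). They were selected for this likeness, so it carries no test. Without Crebbp+/- 3 and Ep300+/- 3 the 8 correlations lay between 0.884 and 0.988 over 10 arrays. Zfp36, an RNA-binding protein that shortens the life of cytokine messages, stood at 14.57 on Crebbp+/- 3 and 14.58 on Ep300+/- 3 against 11.97 to 12.64 in wild type.

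Inflammatory and NF-kB genes were highest on the same arrays as the members. Of 18 listed 15 were measured, with 0 called in any comparison without a replicate block. The block gave 2 of 15 higher in Crebbp+/- against wild type (Il1b and Irf1, limma adjusted p = 0.0496 and 0.043), beside 17.5% of all probe sets. These 15 genes had a median log2 fold change of 1.39 in Crebbp+/- and 1.65 in Ep300+/-, or 0.32 and 0.88 without the 2 heterozygous replicates 3. Their mean log2 level was 8.78 to 9.56 in wild type, 8.98 to 12.89 in Crebbp+/- and 9.23 to 13.10 in Ep300+/-, with the highest values on Crebbp+/- 3 and Ep300+/- 3 and the next on Ep300+/- 2. The mean over the members had the same top 3 arrays (12.89, 12.80 and 11.74). Of 20 macrophage markers 4 were measured (Cd163, Cd14, Fcgr1 and Marco), with means of 11.77 to 11.94 in wild type, 11.87 to 12.90 in Crebbp+/- and 11.84 to 12.79 in Ep300+/-. Cd163 rose in Crebbp+/- (log2 fold change 1.18, limma adjusted p = 0.0228), while Marco had -0.13 in Crebbp+/- and -0.63 in Ep300+/-. In Crebbp+/- against wild type Fcgr1 passed with the block (log2 fold change 0.56, limma adjusted p = 0.0393) but not without it (0.113). Defining markers such as Adgre1, Csf1r and Cd68 were not analysed here. Cd14, a receptor for bacterial lipopolysaccharide, peaked on the replicates 3 (13.48 and 13.70, against 10.58 to 11.23 in wild type), whereas Fcgr1 there (11.01 and 10.56) was close to the other arrays of its genotype. Both were singled out after their values were seen. The part of macrophages or inflammatory signals in the members' levels was not tested.

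Of the macrophage, endothelial and stromal lists the endothelial one had the largest median log2 fold change in Crebbp+/- against wild type, at 1.98. All 13 measured markers were positive there, and 8 of 13 rose, beside 5.02% of all probe sets. Blocked on replicate number, all 13 rose, beside 17.5%. Their list means were 7.04 to 8.22 in wild type and 9.83, 9.48, 9.74 and 7.88 on the Crebbp+/- arrays, with replicate 4 lowest, as for the members, and their part in the members' levels was not tested. In Ep300+/- 0 of 13 were called and the median was -0.43.

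Of 15 stromal markers 9 were measured, with means of 9.58 to 10.62 in wild type, 9.60 to 10.74 in Crebbp+/- and 8.96 to 10.43 in Ep300+/-. No other tissue was at hand to set beside them, so they do not check the labelled tissue. Blocked on replicate number, 1 of 9 fell in Crebbp+/- against wild type, beside 8.62% of all probe sets called lower. In that fit 3 of 9 rose against Ep300+/-, beside 19.1% called higher. Of the granulocyte, lymphoid and erythroid markers 0 of 10, 0 of 8 and 0 of 5 were measured, so the table carries no value for those cells.

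**Figure D4:**
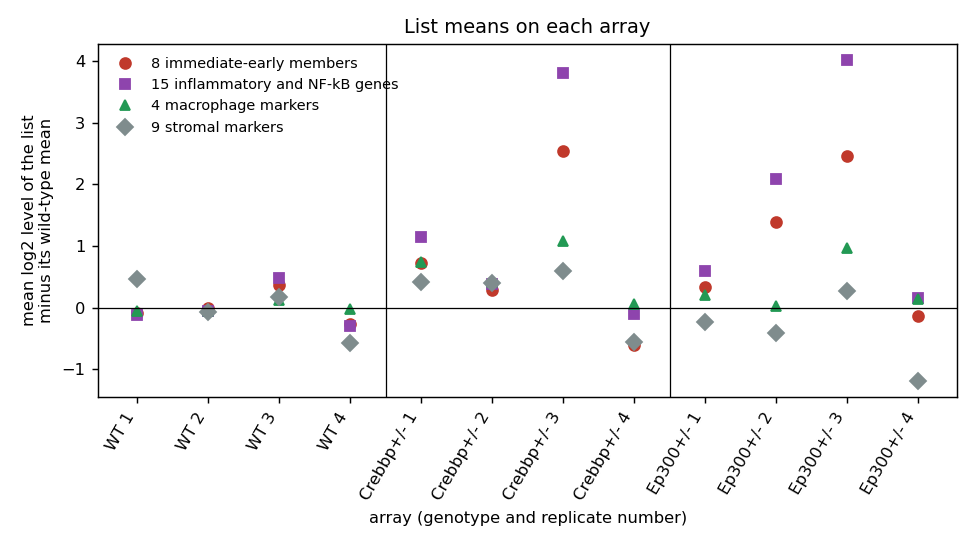
Mean log2 level of 4 gene lists on each array minus the mean of the 4 wild-type arrays (vertical axis), by genotype and replicate number. The inflammatory genes and the members are highest together on Crebbp+/- 3 and Ep300+/- 3, with smaller differences in the macrophage and stromal markers.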

How the data were processed

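RNA from 12 stromal cultures was biotin-labelled and hybridized to Affymetrix arrays. The deposited values are log2 levels from GCRMA, a method of background correction, normalization and probe summary, per the submitters' processing notes (version not given in the sources used here). Of 3127 probe sets, 18 controls were set aside, leaving 3109. The lowest interquartile range over the arrays was 0.5001, so flat genes are not in the table, and a gene without a probe set has no value here. The platform annotation gave 1 symbol to 2486 probe sets, several to 176 and none to 447.

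Without further normalization, limma 3.58.1 under R 4.3.3 (lmFit and eBayes) was run in 1 fit of all arrays with a mean per genotype, two-sided, with Benjamini-Hochberg adjustment over all probe sets and a threshold of 0.05. The test was checked on simulated data. A gene with several probe sets was taken by that of highest mean. Text genes were all members, listed targets called or of largest change, all measured pathway genes and the 8 most alike. Members and lists were chosen with earlier results of these data known. Deviations from the genotype means correlated between same-numbered arrays (between Crebbp+/- and wild type at 0.448 to 0.603, between the heterozygotes at 0.294 to 0.513, but between Ep300+/- and wild type at 0.0593 to 0.683). Arrays of different number were not set against each other in this way, so whether the number pairs the arrays is not settled. It was fitted as a block in every comparison as an alternative, and the blocked value is given where it changes a call. Precision is limited by the number of arrays. Alternatives were quantile normalization, median centring, a minimum mean level, robust eBayes, array weights, 2 genotypes alone, the block and leaving out arrays.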

Additional observations from a re-analysis of the deposited data

Results flagged for a closer look

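No member array stood apart from the other 3 of its genotype by Dixon's criterion in 30 groups examined. The heterozygotes differed in 2 of 11 pathway genes by the direct test between them without a replicate block. Crebbp was lower in Crebbp+/- than in Ep300+/- (log2 fold change -0.91, limma adjusted p = 0.0228), beside 1.51% of all probe sets. Pde2a was higher (0.96, limma adjusted p = 0.0382), beside 4.89%. Blocked on replicate number, Prkacb and Ramp2 were higher as well (1.32 and 1.62, limma adjusted p = 0.00815 and 0.0230), beside 19.1% of all probe sets. The Crebbp call was lost without Crebbp+/- 1 or 2 or Ep300+/- 1, 2 or 4 (limma adjusted p from 0.0511 to 0.07655).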

How the results depend on the processing

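The counts of called members were 0 in all 3 comparisons with most settings. Array weights, whose estimation stopped before full convergence, gave 3 members called in Crebbp+/- (Pde4b, Nr4a1 and Junb), 1 in Ep300+/- (Pde4b), 11 of the 30 other targets in Crebbp+/- against wild type and 7 of them against Ep300+/-. The same weights called 45.8% of all probe sets in Crebbp+/- and 0.579% in Ep300+/- against wild type, and 49.3% between the heterozygotes. The weights ran from 0.309 (Ep300+/- 3) to 10.3 (Crebbp+/- 1). The replicate block gave 1 member (Pde4b) and 4 other targets in Crebbp+/- against wild type and changed no other of these counts. Leaving out 1 array at a time gave 0 to 1 members in Crebbp+/-, the 1 being without Crebbp+/- 4. Without the 3 arrays numbered 3 and with the replicate block, a combination chosen after the data were seen, 2 of the 30 other targets were called in Crebbp+/- against wild type and 2 against Ep300+/-. That fit called 27.1% and 39.5% of all probe sets in these comparisons. The members' median without any 1 array lay between 0.11 and 1.28 in Crebbp+/-, 0.52 and 1.47 in Ep300+/-, and -0.89 and 0.24 between the heterozygotes. Over the 30 member results and 660 alternatives, 20 came to pass the threshold and 45 changed sign without a call. Of the 20, all but 2 (Nr4a1 and Junb with array weights) were of Pde4b.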
